A study of Mus musculus with 12 samples.

Results

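The Max and Mlx network is a group of basic helix-loop-helix leucine-zipper transcription factors that bind the E-box, the DNA motif also recognised by USF-1. The transcripts of 10 of its genes, Max, Mlx, Mlxip, Mlxipl, Mxi1, Mnt, Mga, Myc, Mycn and Mycl, were followed in the hippocampus of USF-1 KO mice and their WT littermates. The 10 genes were chosen by their names, as partners in this network, out of 55487 genes in the table. The rule used no measured value, but earlier results of these data were known when it was set. Testing was limited to the 18221 genes whose normalised count averaged 10 or more, and all 10 members were among them.

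RNA-seq was performed on the hippocampus of 12 mice of the strain C57Bl/6JRccHsd, aged 3 to 4 months, 6 WT and 6 USF-1 KO. By the sample labels, which are used throughout, the WT group held 4 females and 2 males and the KO group 2 females and 4 males. The study's legend to the figure with its RNA-seq and PCR panels gives equal numbers of males and females in each genotype. Both genotypes came from matings of heterozygous mice, so the KO animals had lacked USF-1 in every tissue throughout life, and a direct loss in neurons cannot be told apart from effects of the whole-body state. No drug or other treatment separated the groups. In what follows, mice are numbered within genotype, and a normalised count is a read count divided by the size factor of its library.

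Libraries held between 21679622 and 32091173 reads on genes. Usf1 itself had 842 to 1583 normalised counts in the WT mice and 117 to 163 in the KO mice, a KO mean of 9.98% of the WT mean, with no overlap; the low WT value was that of WT 5. WT 1 and WT 5 held far more RNA of choroid plexus markers (summed 57504 and 162710 normalised counts) than the other WT mice (774 to 1391) or the KO mice (904 to 2697). WT 4 had the highest sum of immediate early genes (24869, with 15546 as the next WT value and 17695 as the highest in the KO) and the lowest WT sum of oligodendrocyte markers (83576). Oligodendrocyte markers spanned 83576 to 180879 summed counts in WT and 71972 to 110270 in KO mice. Sums of oligodendrocyte precursor markers did not overlap, at 5214 to 6318 in WT and 4272 to 5121 in KO mice, with 5 of 5 markers lower in the KO. Microglia markers summed to 5178 to 7494 in WT and 4907 to 5521 in KO mice, with 6 of 6 lower. No gene of any marker list passed the test. Markers of hippocampal excitatory neurons summed to 165953 to 212765 counts in WT and 157947 to 233192 in KO mice, so that they were present in each library. The lowest of these sums was that of KO 1. KO 1 also held 6117 summed counts of neighbouring-tissue markers (thalamus, striatum, cortex layer 4), against 2983 to 3353 in the other KO mice. WT mice spanned 3120 to 6520 for these markers, with WT 1 highest. In whole tissue, fewer cells of a type and less RNA per cell cannot be told apart.

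In this network MAX is the common partner. MYC, MYCN and MYCL pair with MAX to raise transcription of growth genes, whereas MNT, MXI1 and the related MXD proteins pair with MAX and recruit SIN3 and histone deacetylases to lower it, and MGA carries MAX into a Polycomb complex that silences germline genes in other cells. MLX is the parallel partner of MondoA (Mlxip) and ChREBP (Mlxipl), which respond to glucose and its metabolites. All of these dimers favour E-boxes, and the palindrome CACGTG is the site they share with USF-1.

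Since the network shares this site with USF-1, the promoters of its members were searched for the palindrome. Windows of 250 bases before to 50 bases after a RefSeq start (GRCm38.p6) were matched for 9 of the 10 genes, Myc being the gene without a match, in 12 windows. CACGTG, which reads the same on both strands, was present in 4 of these 12 windows. It was present in 2349 of 32851 windows of all genes (7.15%) and in 1459 of 15582 windows of tested genes (9.36%). The median content of G and C was 63.5% in windows of members, 52.7% in all windows and 60.3% in those of tested genes. By gene, CACGTG was found in Max, Mlx, Mlxipl and Mnt, 4 of 9 members, against 1355 of 12147 tested genes with a window (11.2%). The 4 windows follow because they show where the shared letters lie, 5′ to 3′ on the strand of the gene in lower case, with CACGTG in capitals.
Max (chr12:76962199-76962498, minus strand): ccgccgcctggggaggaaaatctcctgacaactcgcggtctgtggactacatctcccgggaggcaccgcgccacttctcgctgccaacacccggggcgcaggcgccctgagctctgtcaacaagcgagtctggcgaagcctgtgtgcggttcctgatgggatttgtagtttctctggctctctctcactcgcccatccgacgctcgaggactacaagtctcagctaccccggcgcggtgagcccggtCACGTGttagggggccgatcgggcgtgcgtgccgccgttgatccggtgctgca
Mlx (chr11:101087040-101087339, plus strand): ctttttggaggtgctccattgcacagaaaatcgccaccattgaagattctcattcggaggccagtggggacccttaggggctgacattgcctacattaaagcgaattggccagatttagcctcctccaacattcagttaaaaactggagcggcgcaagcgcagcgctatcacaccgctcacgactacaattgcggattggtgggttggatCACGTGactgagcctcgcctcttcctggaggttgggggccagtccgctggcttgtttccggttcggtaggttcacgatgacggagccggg
Mlxipl (chr5:135089640-135089939, plus strand): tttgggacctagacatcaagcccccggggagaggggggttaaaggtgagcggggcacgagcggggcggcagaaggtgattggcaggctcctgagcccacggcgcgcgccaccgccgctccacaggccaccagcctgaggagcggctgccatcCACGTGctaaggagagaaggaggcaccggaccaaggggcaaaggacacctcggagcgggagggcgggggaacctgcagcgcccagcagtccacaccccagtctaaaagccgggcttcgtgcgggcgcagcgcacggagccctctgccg
Mnt (chr11:74830674-74830973, plus strand): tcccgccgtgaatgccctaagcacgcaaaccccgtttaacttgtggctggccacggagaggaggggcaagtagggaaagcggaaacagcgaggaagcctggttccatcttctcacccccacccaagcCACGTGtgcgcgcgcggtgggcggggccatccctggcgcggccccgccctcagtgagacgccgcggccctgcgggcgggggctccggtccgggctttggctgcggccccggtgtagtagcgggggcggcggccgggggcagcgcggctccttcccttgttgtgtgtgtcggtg

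In Max the motif began 3 bases before the start and so ran across it. It began 40 bases before the start in Mlx, 98 bases before the upstream of the starts of Mlxipl and 123 bases before that of Mnt. The second Mlxipl window, at a start within the gene, held no CACGTG. Nor did the windows of Mlxip, Mxi1, Mga, Mycn or Mycl, although 1 Mxi1 window held the related CATGTG, read on both strands. CATGTG was present in 14.2% of all windows and in 8.96% of those of tested genes. A match is a description of letters and not of binding, which was not measured here.

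None of the 10 members passed the test of KO against WT, which was limma on log2(normalised count + 1) with Benjamini-Hochberg adjustment over all 18221 genes. The background was 0.900% of genes called, 164 in all, of which 29 were higher (0.159%) and 135 lower (0.741%) in the KO. No member had an unadjusted p under 0.05 either, where 13.5% of all genes did, and in no member were the genotypes free of overlap, where 1.50% of all genes were. The count of members called was also 0 with edgeR's quasi-likelihood test (0.829% of all genes called) and with DESeq2 (3.38%), both run on the reads recovered from the table. By direction alone, 7 members had a higher and 3 a lower KO estimate, with log2 fold changes between -0.07 and 0.17 and a median of 0.05, and all genes together divided into 9069 higher and 9152 lower. For 6 of the 10 the whole 95% interval of the difference lay within a 1.2-fold difference in either direction, and the widest intervals reached log2 -0.31 and 0.41.

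**Figure D1:**
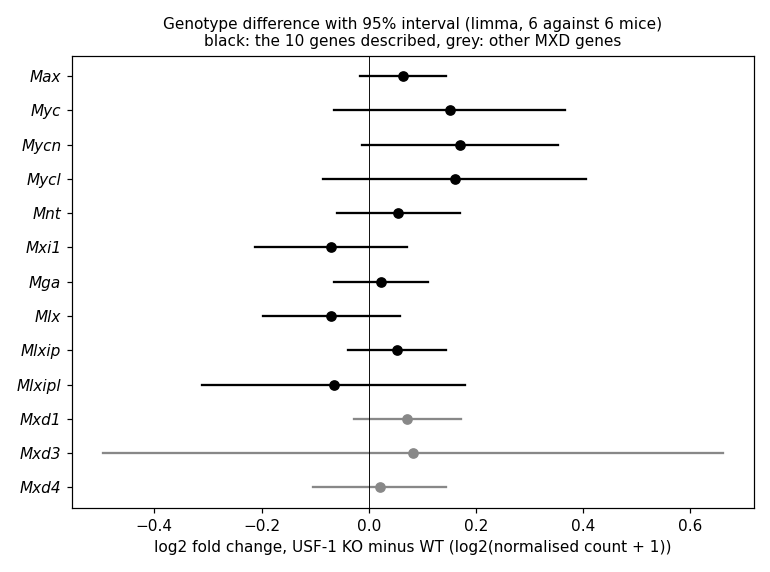
Estimated log2 fold change of KO over WT for each of the 10 genes, on the log2(normalised count + 1) scale, with its 95% interval as a horizontal line, the members in black and Mxd1, Mxd3 and Mxd4 in grey. The intervals of all 10 members cross 0, and among them those of the MYC genes and Mlxipl are the widest.

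Max, the common partner of the MYC, MNT, MXI1 and MGA proteins, lies on chromosome 12 (76937269 to 76962201, minus strand, mm10, ENSMUSG00000059436). WT mice held 1140.1 to 1263 normalised counts with a median of 1212, and KO mice 1215 to 1338 with a median of 1241. Each KO mouse lay above the WT mean of 1200.3 ± 45.7 (SD, n = 6), but only KO 1, at 1338, lay above the highest WT mouse. The KO mean was 1254 ± 44.5 and the difference log2 0.06 (SE 0.04, 95% interval -0.02 to 0.14, limma adjusted p = 0.495). In percent of WT, that interval runs from -1.19% to 10.4%. The means of the females were 1227 in WT and 1294 in KO mice and those of the males 1147 and 1234, with the KO females at 1338 and 1250.2 and the male KO 4, at 1262, between them. With sex as a covariate the estimate was 0.09 (interval 0.02 to 0.16, unadjusted p = 0.0191 from limma, adjusted p = 0.313). Without KO 1, and with genotype alone in the fit, it was 0.04 (limma adjusted p = 0.590).

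The repressive partners of MAX had estimates between log2 -0.07 and 0.06, none past the test. Mnt, a broadly expressed antagonist of MYC, held 1246 to 1533 normalised counts in WT mice (median 1284) and 1275 to 1456 in KO mice (median 1354). The highest WT value, 1533, came from WT 4, and the other 5 WT mice spanned 1246 to 1309.6, and 5 of 6 KO mice exceeded the WT mean of 1318 ± 108. The KO mean was 1367 ± 70.7, log2 0.06 higher (SE 0.05, limma adjusted p = 0.704). Without WT 4 the estimate was 0.10 with an adjusted p of 0.241 in limma, and again 0 members were called, with 2.83% of all genes called in that fit.

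Mxi1, also called Mxd2, held 1172 to 1556 counts in WT (median 1343) and 1146 to 1422 in KO mice (median 1278). KO 4 had the lowest count, WT 4 the highest, and the groups overlapped over most of their range. The KO mean of 1278 ± 95.7 against 1345 ± 129 in WT gave log2 -0.07 (SE 0.07, limma adjusted p = 0.688). Mxi1 was also the member that followed sex most closely, at 1392 ± 91.4 counts in the 6 females and 1231 ± 66.5 in the 6 males (log2 male over female beside genotype -0.17, SE 0.05, unadjusted p = 0.00728, limma adjusted p = 0.650). With sex as a covariate the genotype estimate was -0.01 (interval -0.13 to 0.10). By the labels, the WT group was mostly female and the KO group mostly male, so the parts of sex and genotype cannot be fully told apart. Max was the other member with an unadjusted p under 0.05 for sex (-0.08, limma adjusted p = 0.734), against 6.45% of all genes at that p and 0.0549% called.

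Mga, the largest protein of the network and its link to Polycomb, was nearly level between genotypes. It held 1735 to 2006 counts in WT mice (median 1829.8) and 1738 to 1960.5 in KO mice (median 1877), and the KO range lay inside the WT range. The difference was log2 0.02 (SE 0.04, interval -0.07 to 0.11, limma adjusted p = 0.856), or -4.44% to 7.95% of WT. The remaining MAX antagonists, which are not among the 10, gave estimates of a like size in the same test. Mxd1 had 573 ± 35.2 counts in WT and 601 ± 16.0 in KO (log2 0.07, limma adjusted p = 0.538), Mxd4 1974 ± 166 and 1999 ± 123 (0.02, adjusted p = 0.915). Mxd3 was so low (20.8 ± 8.22 and 21.5 ± 7.23) that its interval ran from -0.50 to 0.66.

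The MYC genes had the largest estimates of the network, all 3 higher in the KO, and their intervals, with that of Mlxipl, were the widest. Mycn, best known from neural progenitors, held 132 to 157 counts in WT mice (median 147) and 143 to 201 in KO mice (median 161). KO 2, KO 3, KO 4 and KO 5 lay above all WT mice, KO 5 highest at 201, while KO 1 (143) and KO 6 (150) lay within the WT range. The means were 146 ± 8.50 in WT and 165 ± 20.8 in KO, a difference of log2 0.17 (SE 0.09, interval -0.01 to 0.35, unadjusted p = 0.0658, limma adjusted p = 0.412), the lowest p of the 10 members. In percent of WT, that interval runs from -0.877% to 27.8%, and it excludes neither no difference nor one near its upper end. Without KO 5 the estimate was 0.11. Without KO 1 the adjusted p was 0.238, the lowest of any member in any fit that was run.

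Myc, an immediate early gene in many tissues, was low in the adult hippocampus. It held 84.1 to 118 counts in WT mice (median 109) and 106 to 119.6 in KO mice (median 116). The WT values split into 84.1 in WT 4 and 84.9 in WT 5 and 108 to 118 in the other 4, and the KO mice lay close together. All 6 KO mice were above the WT mean of 104 ± 15.2, and the KO mean was 114 ± 5.57 (log2 0.15, SE 0.10, limma adjusted p = 0.555). WT 4 and WT 5 are libraries that also stood apart in the marker sums above, and the estimate was 0.09 without WT 4 and 0.10 without WT 5.

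Mycl was by far the most abundant MYC transcript. It held 585 to 1099 counts in WT mice (median 804) and 760.0 to 994 in KO mice (median 918), and the WT range enclosed that of the KO. Its lowest value was in WT 4 and its highest in WT 3. The means of 823 ± 165 and 908 ± 81.1 differed by log2 0.16 (SE 0.11, limma adjusted p = 0.585), and the interval, from -5.75% to 32.4% of WT, was the widest on the upper side. Without WT 4 the estimate was 0.07 and without WT 3 it was 0.25, with limma adjusted p of 0.764 and 0.252. Counted per kilobase of exon, Mycl made up 70.8% ± 3.50 of the MYC family in WT and 70.9% ± 1.90 in KO mice, a difference smaller than the spread between mice.

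**Figure D2:**
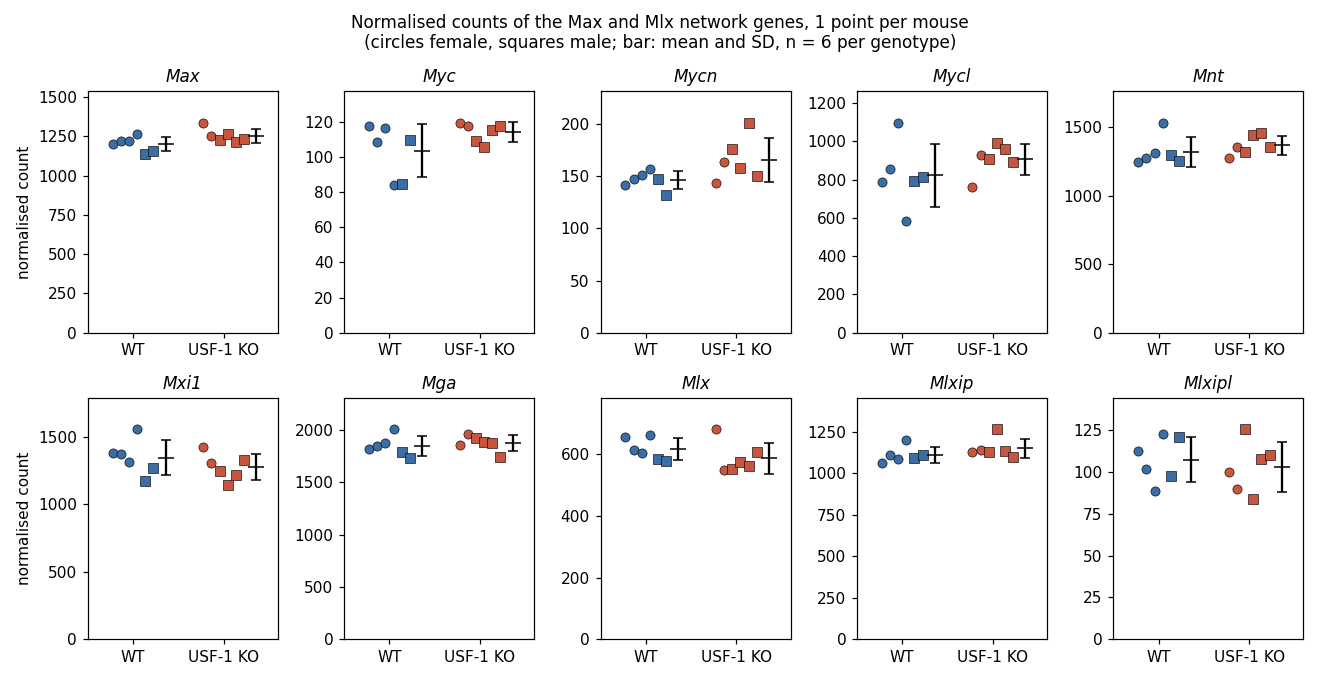
Normalised counts of the 10 genes in each of the 12 mice, 1 panel per gene, with WT and KO side by side, and a bar for the group mean with its SD. Circles are females and squares males. The genotypes overlap in every panel, and 4 KO mice lie above the WT mice in the Mycn panel.

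Mlx and its partners gave small estimates of either sign. Mlx held 577 to 661 counts in WT mice (median 607) and 549 to 680.3 in KO mice (median 567). KO 2, KO 3, KO 4 and KO 5 lay below all WT mice and KO 1, at 680.3, above all of them, so the KO group straddled the WT range. The means were 615 ± 35.7 and 587 ± 50.2, a difference of log2 -0.07 (SE 0.06, interval -0.20 to 0.06, limma adjusted p = 0.657). Without KO 1 the estimate was -0.11 (limma adjusted p = 0.282). An exon stretch of 385 bases of Mlx is shared with Psmc3ip on the opposite strand, and as the strand of counting is not given in the sources used here, reads there cannot be assigned with certainty. Psmc3ip had a mean of 53.8 counts. Among other genes annotated over a member, Gm47218 at Max (mean 26.2 counts, log2 0.07, limma adjusted p = 0.915) and Gm30541 at Mxi1 (mean 19.0, log2 0.20, adjusted p = 0.827) shared no exon bases with it. Gm10197 at Mxi1, Gm43500 at Mlxipl, and Gm15747, Gm42907, Gm42908 and Gm43813 at Mlxip had means of at most 1.23 counts and were not tested.

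Mlxip, which encodes MondoA, held 1060.2 to 1203 counts in WT mice (median 1101) and 1101 to 1267 in KO mice (median 1134). WT 4 (1203) and KO 4 (1267) were the high mice of their groups. The difference was log2 0.05 (SE 0.04, interval -0.04 to 0.14, limma adjusted p = 0.640), and the interval reached 10.4% above WT. Mlxipl, which encodes ChREBP and is known mainly from liver and fat, held 88.7 to 123 counts in WT mice (median 107) and 83.7 to 125 in KO mice (median 104). The KO range enclosed the WT range, and the estimate of -0.07 (SE 0.11, interval -0.31 to 0.18, limma adjusted p = 0.848) had the widest bound on the lower side. The ratio of Mlxip plus Mlxipl to Mlx, per kilobase of exon, was 0.497 ± 0.0289 in WT and 0.538 ± 0.0504 in KO mice, with ranges that overlapped (0.451 to 0.538 and 0.453 to 0.584).

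The levels of the network differed far more between genes than between genotypes. Per kilobase of exon and over all 12 mice, Max was highest at 341 ± 14.2 normalised counts, followed by Mlx (301 ± 22.0) and Mnt (290.2 ± 19.6), the last pair not ordered beyond the spread between mice. Mycl (214 ± 32.6) and Mxi1 (192 ± 16.7) came next, then Mlxip (136 ± 6.68) and Mga (121 ± 5.34). Mycn (47.2 ± 5.52), Myc (40.1 ± 4.50) and Mlxipl (19.4 ± 2.45 in WT and 18.5 ± 2.71 in KO mice) were the low genes. The span from Max to Mlxipl was 18.0-fold, and among all genes tested with a length Max stood at the 79.2 and Mlxipl at the 19.2 percentile of the same measure.

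Most steps of that order held in each of the 12 mice, among them Max above Mlx, Mnt above Mycl, Mga above Mycn and Myc above Mlxipl. Neighbours that could not be ordered were Mlx and Mnt (Mlx higher in 7 of 12 mice), Mycl and Mxi1 (Mycl higher in 9) and Mycn and Myc (Mycn higher in 9). For each unit of Max there were 0.860 ± 0.136 units of the MYC genes together in WT and 0.912 ± 0.0909 in KO mice, and 1.80 ± 0.0806 and 1.74 ± 0.0639 units of Mnt, Mxi1 and Mga together. These are ratios of counts per kilobase of all annotated exons of a gene, whichever transcripts it expresses, and protein was not measured. The order between genes rests on the same lengths.

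**Figure D3:**
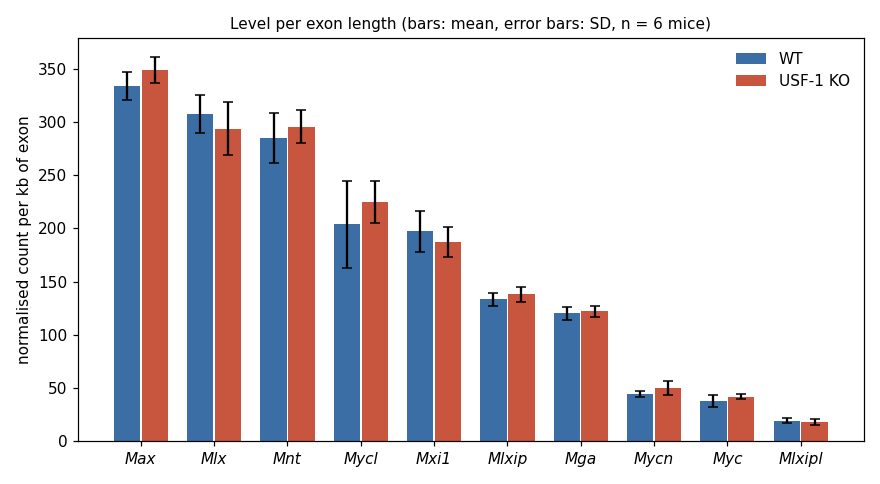
Mean level of each of the 10 genes in normalised counts per kilobase of exon, in order of level, with 1 bar for WT and 1 for KO and error bars of 1 SD (n = 6 mice). Max, Mlx and Mnt lie at the top, Max at 334 in WT and 348 in KO mice, and Mlxipl at the bottom with 19.4 and 18.5.

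The difference between sexes in the response to genotype was tested for each member with an interaction term. No member had an unadjusted p under 0.05 for it, where 3.45% of all genes did, and 0 of 18221 genes passed after adjustment in limma (0.00%). The lowest member was Mycn, with a KO mean of 103% of WT in females and 122% in males and an interaction of log2 0.25 (SE 0.18, interval -0.15 to 0.64, unadjusted p = 0.199 in limma). With 2 KO females and 2 WT males in this term, intervals are wide. Within each sex the KO mean was 105% and 107.5% of WT for Max, 111% and 115% for Myc, 102% and 117% for Mycl, and 97.2% and 98.8% for Mlx, in females and males.

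The transcripts that most resembled a member were sought over the 12 libraries, by the root mean square difference of standardised log2 values in 12676 genes with a mean above 100. For Max they were Wdr82 (0.366 SD), Nelfa (0.406) and Sac3d1 (0.492), against a median of 1.33 over all genes compared. For Mlx they were Lrig1 (0.349), Ppil1 (0.352) and Lhfpl3 (0.352), against 1.36. The libraries share depth, dissection and cell make-up, and the values describe likeness alone.

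Gene groups around the network were then counted. Of 20 genes responsive to MondoA and ChREBP, 18 could be tested and 0 were called, 2 being higher and 16 lower in the KO with a median of log2 -0.09, beside a median of -0.00 over all genes tested. Unadjusted limma p-values under 0.05 were found for 3 of the 18, all lower, where 13.5% of all genes had such a p. Acaca, acetyl-CoA carboxylase of fatty acid synthesis, had 2085 ± 68.9 counts in WT and 1929 ± 95.0 in KO mice (log2 -0.11, limma adjusted p = 0.207). Scd1, a fatty acid desaturase, had 4621 ± 634 and 3734 ± 617 (-0.31, adjusted p = 0.208) and Elovl6, a fatty acid elongase, 1585 ± 80.8 and 1448 ± 89.3 (-0.13, adjusted p = 0.235). The summed oligodendrocyte markers also were lower in the KO, with medians of 149163 in WT and 94234 in KO mice and 6 of 6 markers having the lower mean in the KO; their part in these values was not tested. Txnip and Arrdc4, the classical MondoA targets, were picked out after their values were seen. Txnip had 496 ± 68.1 counts in WT and 438 ± 52.9 in KO mice (-0.18, limma adjusted p = 0.470), and Arrdc4 312 ± 27.9 and 314 ± 62.0 (-0.01, adjusted p = 0.992).

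Of 24 MYC-responsive growth genes, all were tested and 0 were called, with 7 higher, 17 lower and a median of log2 -0.05. In limma, 7 of the 24 had an unadjusted p under 0.05, all lower in the KO, where 13.5% of all genes had such a p. The leading genes were mitochondrial chaperonins. Hspd1 spanned 3128 to 3322 counts in WT and 2858 to 3119 in KO mice without overlap (log2 -0.11, limma adjusted p = 0.123), and Hspe1 had 897 ± 35.7 and 814 ± 31.0 (-0.14, adjusted p = 0.128). Nop56, of ribosomal RNA modification, had 1547 ± 52.4 and 1458 ± 37.2 (-0.08, adjusted p = 0.277). DESeq2 alone called 2 of the 24, Hspd1 (adjusted p = 0.0111) and Hspe1 (adjusted p = 0.0495), with 3.38% of all genes called by it, and edgeR called 0. The annotated spans of Hspd1 (55077835 to 55088243) and Hspe1 (55088132 to 55091307) overlap on chromosome 1, so these are not separate loci.

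The cofactor lists gave small values that were mostly above 0. Among 15 cofactors of MYC, 12 were higher and 3 lower with a median of 0.05, none was called, and Ruvbl1, a helicase-like subunit of chromatin remodellers, led with 0.13 (limma adjusted p = 0.383), before Zbtb17, the MYC partner MIZ1 (0.09, adjusted p = 0.473), and the remodeller Ep400 (0.08, adjusted p = 0.535). Among 16 tested genes of the SIN3 and histone deacetylase complexes through which MXI1 and MNT act, 12 were higher and 4 lower with a median of 0.03, and none was called. Rbbp7, a histone-binding subunit, had 0.10 (limma adjusted p = 0.367) and the deacetylase Hdac1 0.10 (adjusted p = 0.437).

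MGA and MAX are subunits of a non-canonical Polycomb complex, of which 10 genes were tested and 0 called, 9 higher and 1 lower. Cbx3, a heterochromatin protein, had 847 ± 23.4 counts in WT and 914 ± 23.5 in KO mice (log2 0.11, limma adjusted p = 0.165) and its groups did not overlap. E2f6, the DNA-binding partner of that complex, was the 1 lower gene at 605 ± 14.7 and 556 ± 36.5 (-0.12, adjusted p = 0.262), and its partner Tfdp1 had 0.08 (adjusted p = 0.494). Of 13 germline genes silenced by this complex in other cells, 10 were under the limit of 10 counts and 3 were tested, with none called. All 3 had an unadjusted limma p under 0.05, 1 higher and 2 lower in the KO, where 13.5% of all genes had such a p. Stag3, a meiotic cohesin subunit, spanned 31.0 to 52.4 counts in WT and 48.4 to 70.8 in KO mice, and each KO mouse lay above the WT mean of 40.9 ± 7.43. Its difference of log2 0.55 (SE 0.14) had an unadjusted p of 0.00162 and a limma adjusted p of 0.0917. DESeq2 called it (adjusted p = 0.0304), with 3.38% of all genes called by that tool, and edgeR did not (adjusted p = 0.0855). Ddx4 had 87.8 ± 15.3 and 71.9 ± 7.47 counts (-0.27, limma adjusted p = 0.352) and Tdrd1 20.1 ± 7.61 and 11.2 ± 7.26 (-0.93, adjusted p = 0.314).

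Other E-box factors of the same structural class formed a list of 9, of which 8 were tested and 1, Usf1 itself, was called. Usf2, which forms dimers with USF-1, had a difference of log2 0.06 (limma adjusted p = 0.468). Mitf, a regulator of pigment cells, Tfeb, a regulator of lysosomes, and Srebf2 were picked out after their values were seen. Mitf had a difference of log2 -0.47 (limma adjusted p = 0.308), with 442 counts in WT 5 and 338 in WT 1, the choroid plexus libraries, and at most 248 in the other WT mice. Tfeb had a difference of log2 -0.25 (limma adjusted p = 0.257). Srebf2 was higher in the KO, with 5863 ± 279 counts in WT and 6341 ± 196 in KO mice (log2 0.11, limma adjusted p = 0.192). Of the 8 tested genes, 4 had a higher and 4, Usf1 among them, a lower KO estimate.

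**Figure D4:**
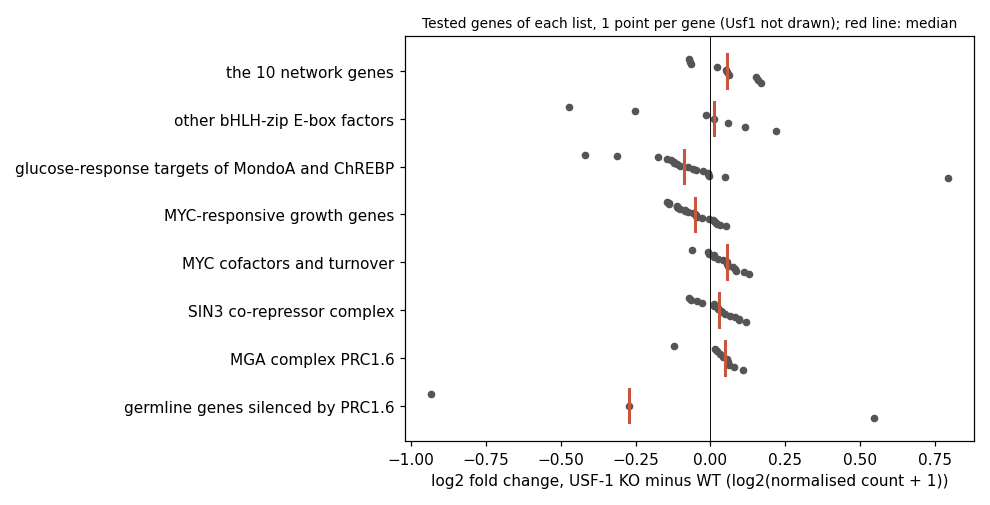
Log2 fold change of KO over WT for each tested gene of the lists, 1 row per list and 1 point per gene, with the 10 members in their own row, a bar at the median of each list and Usf1 not drawn. The members lie between -0.07 and 0.17, and the 18 genes responsive to MondoA and ChREBP lie mostly below 0 with a median of -0.09, the point at 0.79 being Slc2a4, a glucose transporter at 17.4 counts in WT and 29.7 in KO mice (limma adjusted p = 0.397).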

How the data were processed

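RNA was extracted from hippocampus with a Qiagen miRNA mini kit and libraries were made with the NEBNext Ultra II kit. Per the study's methods, reads were aligned with STAR on Illumina's platform, and the submitters' processing notes name STAR 2.5.0a, edgeR 3.22.2 and mm10. The counter, its annotation and its strand setting are not given in the sources used here. The deposited signal values are gene read counts that the authors divided by size factors. They are not raw counts, but all were whole multiples of 1 read (100% of values within 0.01 read), from which reads and depth were recovered. Of the genes in the table, 98.8% had the same span in GENCODE M21, which gave positions and exon lengths.

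KO was compared with WT by limma (3.58.1, with a mean trend) on log2(normalised count + 1) in R 4.3.3, over 18221 genes with a mean of at least 10, with a Benjamini-Hochberg adjusted p under 0.05 as threshold. A fold change on this scale understates that of low genes. The sexes given by the labels entered a second fit with genotype and their interaction. The design was genotype alone. Alternatives included edgeR 4.0.16 (quasi-likelihood) and DESeq2 1.42.0 on recovered reads, other scalings, pseudocounts of 0.5 and 5, other limits on the mean, sex as a covariate and each mouse left out. Simulated data took their means and depths from these libraries, with a spread between mice that was set and not measured. Of 200 genes given a 2-fold change there, 191 (95.5%) were found by limma, with 9 further calls. The estimates of the members were far smaller than 2-fold, so this share is no measure of the power to find them. No pair of libraries agreed within counting noise (lowest chi-square per degree of freedom 4.54 over 66 pairs). From each list the called genes or else the 3 with the lowest p were named, and others where stated. Named too were the members, Usf1, the MXD genes, genes overlapping a member and the 3 genes most like Max and Mlx. The values of 1 gene that this rule names are not reported here. The members and lists were chosen with earlier results of these data known. Promoter windows are those of RefSeq.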

Additional observations from a re-analysis of the deposited data

Results flagged for a closer look

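Within a genotype of 6 mice, the highest or lowest mouse stood apart from the rest by Dixon's criterion in 4 of the 26 groups examined, where about 1 in 20 groups, or 1.3 of 26, would be marked by chance. For Mlxip the mouse apart was WT 4 with 1203 normalised counts (other WT mice 1060.2 to 1110.3) and, in the other genotype, KO 4 with 1267 (other KO mice 1101 to 1140.4). For Mnt it was WT 4 again with 1533 (others 1246 to 1309.6). For Mxd3, a low gene outside the 10 members, it was KO 1 with 35.0 counts from 43 recovered reads (others 14.2 to 21.6). WT 4 was also the library with the highest sum of immediate early genes, and the part of this in the Mlxip and Mnt values was not tested.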

How the results depend on the processing

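The number of members called was 0 under every alternative run, and each of the 10 estimates kept its sign and its side of the threshold in all 240 comparisons of a member with an alternative, with adjusted p between 0.238 and 0.990. The widest moves were those of Mycl (log2 0.03 to 0.25) and Myc (0.02 to 0.20), and Mxi1 came as close to 0 as -0.01. The count over all genes, 164, was less steady. It was 98 with sex as a covariate, 109 without the mean trend in limma, 616 with DESeq2, 343 at an adjusted p of 0.1, and 59 without WT 1 and WT 5, an alternative chosen after seeing the data, as was leaving out WT 1, WT 4, WT 5 and KO 1 (211). Leaving out 1 mouse gave counts between 64 (without WT 1) and 515 (without WT 4), and counts of 72 to 97 without WT 2, WT 6, KO 2, KO 3, KO 4 or KO 5; the cause was not tested. The interaction of sex and genotype gave 0 genes in all 8 fits. A search for CACGTG or CATGTG in the promoters counted 5 members instead of 4, where 20.5% of tested genes with a window held either. Under the scalings the median of all genes reached at most log2 0.01. No paired analysis was possible because the labels give the mice no replicate numbers that the genotypes share. Depth limits chiefly Myc, Mycn and Mlxipl, with as few as 69 reads in a library.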
